A study of Sus scrofa with 8 samples.

Results

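A2M, PTX3, CP and TF are 4 of the 35683 genes counted in nuclei from pig retina after intravitreal AAV injection, and the symbols stand for secreted proteins whose blood levels move in the acute-phase response. They were chosen by their values in these data, with earlier results in view: A2M and PTX3 led a cluster of rod nuclei that came almost entirely from AAV retinas at week 4, CP was among the leading genes of a cluster of Müller glia, and TF was added beside CP. The contrast of AAV with vehicle at week 4 therefore helped to choose them, so their differences in that contrast are described below without a test. Each member was counted in every nucleus of all 8 retinas, and UMIs (unique molecular identifiers, the counted RNA molecules) were summed per retina and cell class. Levels are given as CPM, the UMIs of a gene per 1000000 UMIs of that class in that retina.

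The animals were female Yucatan minipigs of 3 to 5 months. All of them received Vitrase (hyaluronidase) into the vitreous of both eyes 2 weeks before dosing, and weekly methylprednisolone from shortly before it, so the vehicle animals carried both treatments as well. Both eyes then received 5e11 vg per eye of AAV2.7m8/CAG-GFP, a capsid variant that expresses green fluorescent protein from a ubiquitous promoter, or vehicle. At week 2 both retinas of 1 AAV animal (7221) and of 1 vehicle animal (7222) were sequenced, and at week 4 the left retinas of AAV animals 7248 and 7249 and of vehicle animals 7250 and 7251. Week 2 thus holds 1 animal per arm and allows no test, while week 4 holds 2 animals per arm. In the paper, week 4 covers cohorts killed on different days, the earlier because inflammation was detected. The day and the uveitis score of the week 4 animals sequenced are not given by the labels used here. The batch label is different in each of the 4 groups, so an effect of treatment and one of batch cannot be told apart.

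Of 388491 barcodes, 350537 were kept, and 286815 of these were placed in 1 of 12 cell classes by marker genes. Rods numbered 7567 to 26233 per retina, and their 7 rod markers (PDE6A, GNAT1, NRL and others) summed to 6646 to 7113 CPM in AAV and 7432 to 7985 CPM in vehicle retinas at week 4. Müller nuclei numbered 4701 to 6400 in the 6 other retinas but 1794 and 711 in the AAV retinas at week 4. The median depth of Müller nuclei there was 5143.5 and 5372 UMIs, against 2196 and 1994 in vehicle, and their 7 Müller markers summed to 2233 to 2251 CPM against 3331 to 3357 CPM. RLBP1, ABCA8, DKK3 and CA14 were lower in these nuclei, and SLC1A3 and SOX9 were higher. Astrocytes numbered 130 to 409 per retina and were gated on 3 markers, of which GFAP and PAX2 held nearly all UMIs. Their nuclei also carried Müller markers, at 2206.29 CPM over all retinas. The total per retina ran from 121544835 to 173614051 UMIs, and 17084 barcode sequences occurred in more than 1 retina.

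The acute-phase response is a change in secreted proteins that the liver makes when cytokines of the IL-6 and IL-1 families signal through STAT3, C/EBP factors and NF-kappaB. A2M (alpha-2-macroglobulin) traps proteases, PTX3 is a long pentraxin of innate immunity that tissues make locally, CP (ceruloplasmin) oxidises iron for export, and transferrin, the protein the symbol TF usually stands for, carries iron and falls in blood during inflammation. In the retina, Müller glia span all layers and take part in iron handling, and rods are the photoreceptors of dim light.

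The 250 bases before annotated starts are shown because they were searched for motifs of these factors. A start whose 250 bases overlapped an exon was left out. They were read from RefSeq's Sscrofa11.1 assembly, the build named for the counts, and are printed 5′ to 3′ on the strand of the gene. A2M spans chr5:62406928-62483690 on the plus strand, PTX3 chr13:97273594-97279570 on the plus strand and CP chr13:89396713-89463540 on the minus strand. The symbol TF belongs to a pair of adjacent plus-strand genes in RefSeq, transferrin at chr13:74930655-74970599 and the porcine inhibitor of carbonic anhydrase at chr13:74862502-74907059, and which of them the counted TF (ENSSSCG00000011640) is was not settled here. TF therefore stands below for the counted gene and not for transferrin as such. Capitals mark matches, on either strand, to a C/EBP motif (TTGC and AA with any 2 bases between) or an NF-kappaB motif (GGGA and CC with any 4 bases between).
A2M, first RefSeq start (chr5:62406678-62406927, plus strand): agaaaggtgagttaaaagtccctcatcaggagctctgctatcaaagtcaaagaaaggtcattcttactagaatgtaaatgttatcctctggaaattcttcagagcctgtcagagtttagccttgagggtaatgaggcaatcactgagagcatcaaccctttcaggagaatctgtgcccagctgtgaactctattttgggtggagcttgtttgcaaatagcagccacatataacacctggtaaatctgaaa
A2M, second RefSeq start (chr5:62437774-62438023, plus strand): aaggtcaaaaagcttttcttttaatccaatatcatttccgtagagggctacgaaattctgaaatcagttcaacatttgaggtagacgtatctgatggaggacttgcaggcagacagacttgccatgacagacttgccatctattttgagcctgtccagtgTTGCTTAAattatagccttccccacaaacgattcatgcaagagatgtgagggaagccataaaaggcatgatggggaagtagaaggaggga
PTX3 (chr13:97273344-97273593, plus strand): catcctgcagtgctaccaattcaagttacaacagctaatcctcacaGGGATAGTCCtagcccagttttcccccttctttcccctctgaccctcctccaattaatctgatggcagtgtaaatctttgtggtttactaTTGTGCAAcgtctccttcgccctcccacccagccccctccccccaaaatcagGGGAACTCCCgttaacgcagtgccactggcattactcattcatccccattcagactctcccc
CP (chr13:89463541-89463790, minus strand): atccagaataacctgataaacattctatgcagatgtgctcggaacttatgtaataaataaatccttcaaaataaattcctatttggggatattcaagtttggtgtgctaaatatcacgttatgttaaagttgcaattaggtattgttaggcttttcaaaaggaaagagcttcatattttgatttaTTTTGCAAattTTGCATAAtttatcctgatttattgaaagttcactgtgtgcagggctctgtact
TF, transferrin (chr13:74930405-74930654, plus strand): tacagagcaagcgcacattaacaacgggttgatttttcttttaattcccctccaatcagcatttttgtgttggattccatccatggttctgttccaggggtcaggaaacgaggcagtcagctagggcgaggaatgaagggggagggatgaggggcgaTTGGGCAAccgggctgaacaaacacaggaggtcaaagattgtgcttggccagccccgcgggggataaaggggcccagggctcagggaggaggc
TF, porcine inhibitor of carbonic anhydrase (chr13:74862252-74862501, plus strand): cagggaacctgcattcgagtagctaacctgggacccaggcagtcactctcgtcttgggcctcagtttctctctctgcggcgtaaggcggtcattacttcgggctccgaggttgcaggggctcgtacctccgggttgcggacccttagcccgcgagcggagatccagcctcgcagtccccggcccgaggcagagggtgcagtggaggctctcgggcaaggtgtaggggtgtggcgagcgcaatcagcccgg

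PTX3 held 2 NF-kappaB matches, 204 to 195 and 62 to 53 bases before its start, and 1 C/EBP match 114 to 107 bases before it. CP held 2 C/EBP matches, 65 to 58 and 54 to 47 bases before the start, and transferrin held 1, 93 to 86 bases before it, whereas the window of the porcine inhibitor of carbonic anhydrase held none. The second A2M start had 1 C/EBP match, 90 to 83 bases before it, and the first had none. Over windows of the same length at the outermost start of 20664 genes, 8.38% held the C/EBP motif and 25.9% the NF-kappaB motif. That background holds no internal starts such as the second A2M start. CP and the porcine inhibitor of carbonic anhydrase have 2 annotated starts each, and only 1 of each was searched. A STAT motif (TTC and GAA with any 3 bases between, in 6.38% of genes) and an interferon-response motif (GAAA and GAAA with any 2 bases between, in 3.14%) had no match in the windows shown. A match is only a description of these letters.

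A2M was far higher in rods of the AAV retinas at week 4 than in rods of any other retina, where most of its UMIs lay in bipolar nuclei. At week 4, rods of AAV animals 7248 and 7249 held A2M at 474.8 and 371.1 CPM, and rods of vehicle animals 7250 and 7251 at 5.747 and 17.37 CPM. At week 2, the left and right retinas of the AAV animal held 10.39 and 6.054 CPM and those of the vehicle animal 5.929 and 6.347 CPM. Both AAV retinas at week 4 lay far above the 6 other retinas, which overlapped one another.

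The week 4 means were 423 ± 73.3 CPM in AAV and 11.56 ± 8.22 CPM in vehicle rods (SD, n = 2), a ratio of 36.6 that rested on 48218 and 425 UMIs. The log2 fold change fitted with edgeR was 5.32 (SE 0.487), and it was 6.28 without vehicle animal 7251 and 4.70 without vehicle animal 7250. SE, here and below, is the absolute log2 fold change divided by the square root of edgeR's F statistic. It borrows spread from other genes and is not the spread between 2 animals. For the members no test is read from it. The 4 lanes of each retina lay close together, at 465 to 484 CPM and 362 to 387 CPM in the AAV retinas and at 4.89 to 6.76 CPM and 16.9 to 18.7 CPM in the vehicle retinas. A lane is a repeat of the same nuclei suspension and adds no animal.

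**Figure D1:**
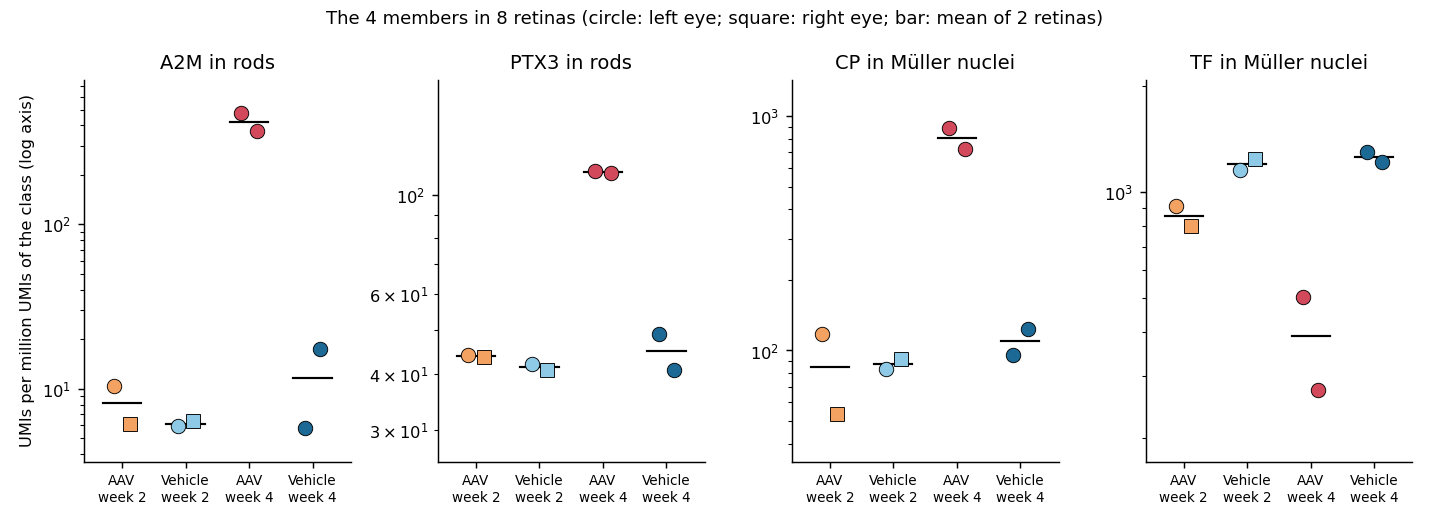
Level of A2M and PTX3 in rods and of CP and TF in Müller nuclei, in CPM on a log axis, for each of the 8 retinas by group, with a circle for a left eye, a square for a right eye and a bar at the mean of the 2 retinas. A2M in rods reached 371.1 and 474.8 CPM in the AAV retinas at week 4 and stayed at or under 17.37 CPM elsewhere, and TF in Müller nuclei was lowest in those same 2 retinas.

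A2M was spread over many rods of the AAV retinas at week 4. A UMI of A2M was present in 37.3% and 33.6% of rods there, against 0.892% and 2.10% in vehicle retinas. After each nucleus was thinned to 1000 UMIs, the shares were 26.2% and 21.3% against 0.478% and 1.19%, while Müller nuclei of the same AAV retinas stood at 2.35% and 0.986%. Rods with 10 or more A2M UMIs made up 1.04% and 1.06% of AAV rods, and the highest count in a single rod was 27 and 33. The tenth of rods with the most A2M held 57.8% and 62.4% of its UMIs, so the level varied widely among rods of the same retina.

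**Figure D2:**
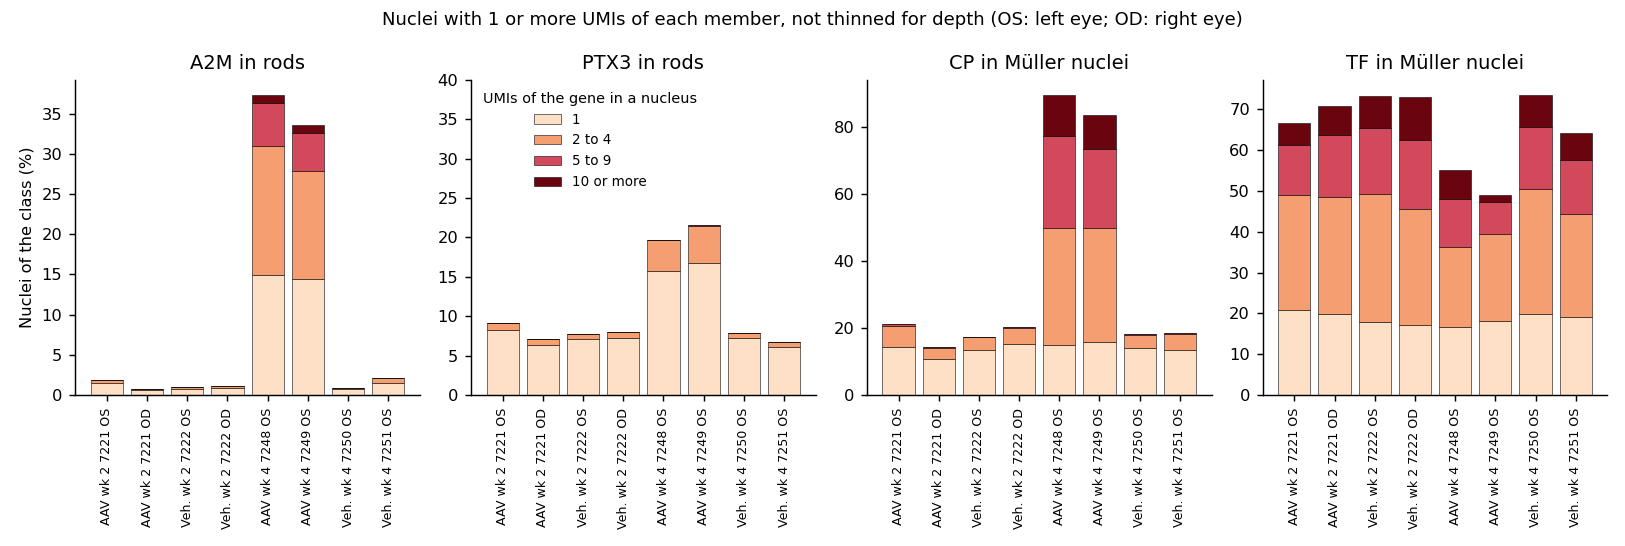
Percentage of nuclei with 1, 2 to 4, 5 to 9 or 10 or more UMIs of each member in its main class, stacked for each of the 8 retinas and not thinned for depth. A2M was present in 37.3% and 33.6% of rods in the AAV retinas at week 4, and CP in 89.8% and 83.7% of Müller nuclei there.

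In the 6 other retinas, bipolar nuclei, the interneurons that carry photoreceptor signals to ganglion cells, held 56.8% to 63.0% of all A2M UMIs and rods 2.45% to 7.32%. In the AAV retinas at week 4, rods held 72.2% and 75.7% and bipolar nuclei 9.11% and 8.57%. Bipolar nuclei themselves held 197.6 and 164.6 CPM in AAV and 118.7 and 137.3 CPM in vehicle retinas at week 4, a ratio of 1.41 with no overlap (log2 fold change 0.53, SE 0.114). Rod markers in these AAV bipolar nuclei stood at 11.6% and 10.5% of their rod level. The part of rod A2M RNA in this difference was not tested. Nuclei with GRIK1 but neither GRM6 nor TRPM1, the pattern of OFF bipolar cells, held 185.5 to 212.5 CPM in the vehicle retinas and 276.8 and 205.8 CPM in the AAV retinas at week 4. Nuclei with GRM6 or TRPM1 but no GRIK1, the pattern of ON bipolar cells, held 115.4 and 139 CPM in vehicle and 177.1 and 185.6 CPM in AAV. In both kinds the gene was expressed without vector, and in all 8 retinas the OFF pattern had the higher level. Nuclei with GRIK1 together with GRM6 or TRPM1 numbered 1406 to 2302 per retina. They held 62.53 to 147.8 CPM, less than either pattern in all 8 retinas. The order of OFF over ON therefore covers only nuclei with a clear pattern, not all nuclei with GRIK1.

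**Figure D3:**
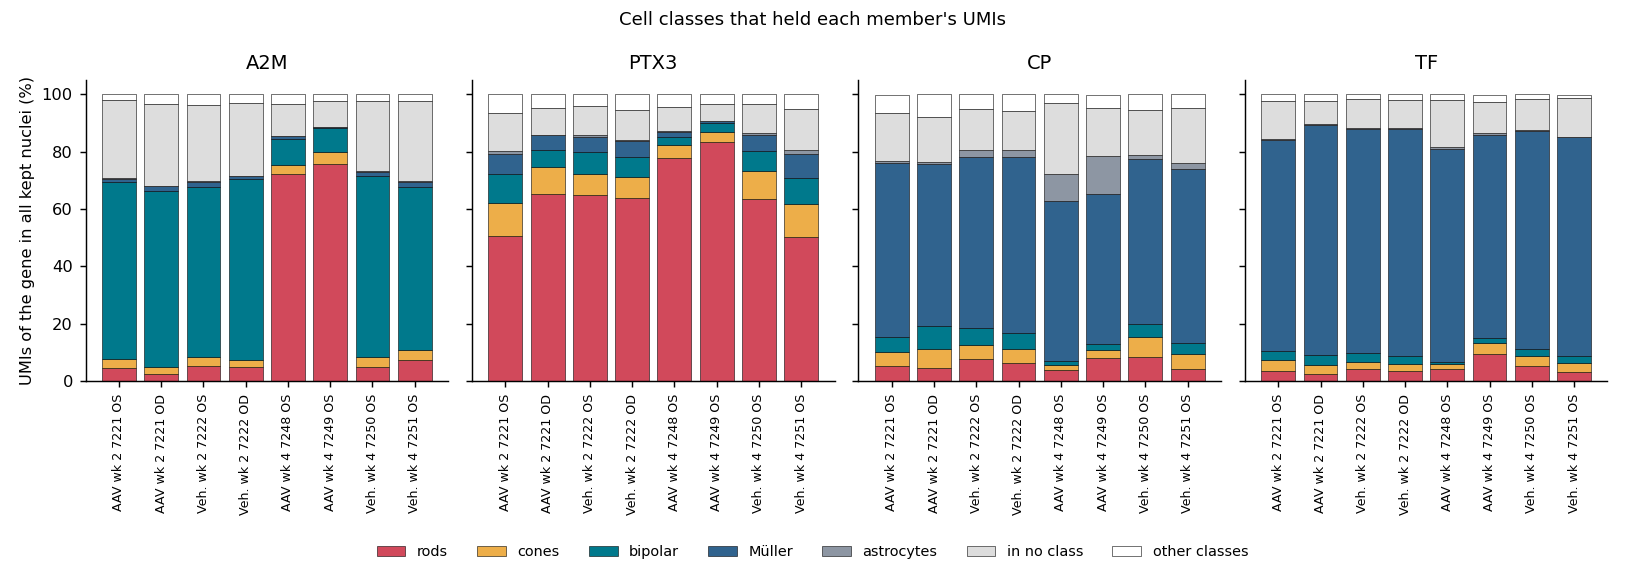
Percentage of each member's UMIs found in each cell class, stacked to all kept nuclei, for each of the 8 retinas. For A2M the bipolar share of 56.8% to 63.0% in 6 retinas gave way to a rod share of 72.2% and 75.7% in the AAV retinas at week 4, while Müller nuclei held 71.0% to 80.5% of TF in all 8.

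Among classes of at least 50 nuclei in both AAV retinas at week 4, the order of A2M levels ran from rods to bipolar nuclei and lymphocytes (134.9 and 128.7 CPM), and these 3 classes did not overlap. Microglia and macrophages (54.2 and 89.35 CPM) and cones (60.2 and 64.56 CPM) followed and overlapped each other. Amacrine, horizontal, Müller and astrocyte nuclei lay between 16.01 and 26.08 CPM, and retinal ganglion cells were lowest, at 6.681 and 9.979 CPM. Compared with vehicle, A2M was higher without overlap in 8 of 9 classes at week 4 and lower in 1, microglia and macrophages, which held 105.3 and 125.3 CPM in vehicle retinas. That class numbered 1415 and 892 nuclei in AAV but 64 and 69 in vehicle retinas, where its A2M level rests on 31 UMIs, against 569 in AAV. The share of all genes that separated in this way was not computed, and the 9 classes come from the same retinas. Such counts of classes, here and below, are therefore only descriptions.

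RNA released from broken cells adds UMIs of abundant genes to every droplet, so each class was set beside the level that rod markers reached in it. In animal 7248, A2M in Müller nuclei was 5.49% of its rod level and rod markers were 5.53% of theirs. The same pair was 12.7% and 12.1% in cones, 4.32% and 4.30% in amacrine cells and 28.4% and 27.7% in lymphocytes. In animal 7249 the pairs were 4.31% and 6.34% in Müller nuclei, 17.4% and 12.1% in cones, 5.18% and 4.33% in amacrine cells and 34.7% and 29.0% in lymphocytes. The 2 percentages thus lay close together in these 4 classes of animal 7248, whereas in animal 7249 A2M was above the marker share in cones, amacrine cells and lymphocytes and below it in Müller nuclei. The remaining classes varied as well. Microglia and macrophages had 18.8% and 13.1% in animal 7248 and 14.6% and 14.7% in animal 7249, and horizontal cells 3.82% and 3.82% and then 4.62% and 2.84%. Ganglion cells had 2.10% and 1.25% and then 1.80% and 2.26%, and astrocytes 3.93% and 5.67% and then 4.34% and 3.53%.

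Bipolar nuclei had the widest gap in both animals, with A2M at 41.6% and 44.4% of the rod level against 11.6% and 10.5% for rod markers. The gap includes the level that bipolar nuclei had without vector, 118.7 and 137.3 CPM in vehicle retinas at week 4. Read the other way, A2M in rods was 240% and 225% of its bipolar level in the AAV retinas at week 4, where bipolar markers in rods were 6.20% and 6.32% of theirs. In 5 of the 6 other retinas the 2 percentages lay close to each other, at 4.84% to 8.60% for A2M and 5.85% to 7.26% for the markers. The exception was vehicle animal 7251, with 12.7% for A2M and 7.00% for the markers.

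**Figure D4:**
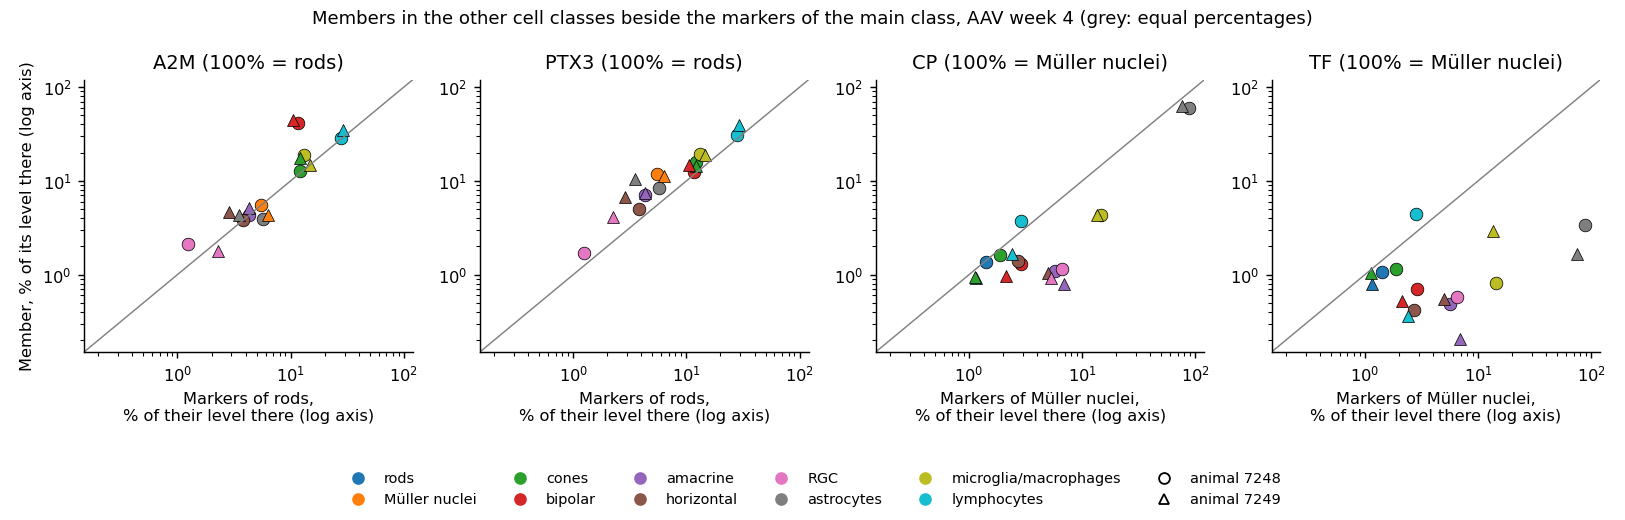
For the AAV retinas at week 4, each member's level in the other cell classes as a percentage of its level in the main class (y axis, log), against the same percentage for that class's marker genes (x axis, log), with circles for animal 7248, triangles for 7249 and a grey line at equality. TF in retinal ganglion cells of animal 7249 was at 0 UMIs and is not drawn. For A2M, bipolar nuclei lay at 41.6% and 44.4% against 11.6% and 10.5%, far above the line.

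PTX3 was a gene of rods in every retina, and its level there was about the same in the 6 retinas outside the AAV week 4 group. Rods held 112.6 and 111.6 CPM in the AAV retinas at week 4 and 49.04 and 40.73 CPM in the vehicle retinas. At week 2 they held 44.08 and 43.44 CPM in the AAV animal and 41.91 and 40.76 CPM in the vehicle animal. The week 4 means were 112.1 ± 0.707 and 44.88 ± 5.88 CPM (SD, n = 2), a ratio of 2.50 with a log2 fold change of 1.41 (SE 0.129), and the groups did not overlap.

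A UMI of PTX3 was found in 19.7% and 21.6% of AAV rods and in 7.91% and 6.66% of vehicle rods at week 4, and thinning to 1000 UMIs gave 10.4% and 9.76% against 4.82% and 4.10%. Rods held 77.9% and 83.3% of all PTX3 UMIs in the AAV retinas at week 4 and 50.2% to 65.3% in the others. PTX3 was higher in AAV without overlap in 8 of 9 classes at week 4 and overlapped in astrocytes. In cones it was 15.8% and 14.4% of its rod level beside 12.1% and 12.1% for rod markers, and in Müller nuclei 11.8% and 11.3% beside 5.53% and 6.34%.

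A2M and PTX3 were chosen because they led the same cluster of rod nuclei, so how often they occurred together in rods of the AAV retinas at week 4 follows in part from that choice and is only described. Among nuclei thinned to 1000 UMIs, it was found in 15% of 5855 A2M-positive rods of animal 7248 (14.1% to 15.9% by the exact binomial method) and in 8.80% of the A2M-negative rods (8.37% to 9.25%). In animal 7249 the shares were 15% of 5548 rods (14% to 15.9%) and 8.34% (7.97% to 8.73%). The vehicle retinas at week 4 had 66 and 98 A2M-positive rods, too few for the comparison, with PTX3 in 6.06% and 3.06% of them and in 4.81% and 4.11% of the rest. These intervals cover counting error only.

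CP was highest in Müller nuclei in every retina, and both Müller nuclei and astrocytes of the AAV retinas at week 4 held several times more of it. Müller nuclei held 892.2 and 725.7 CPM in AAV and 95.5 and 123.7 CPM in vehicle retinas at week 4. At week 2 the AAV animal held 117 CPM in its left and 53.66 CPM in its right retina, on either side of the vehicle animal's 83.46 and 92.33 CPM. CP therefore separated the groups at week 4 and overlapped at week 2.

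The week 4 means in Müller nuclei were 809 ± 118 CPM and 109.6 ± 19.9 CPM (SD, n = 2), a ratio of 7.38 and a log2 fold change of 2.90 (SE 0.168). It stayed between 2.70 and 3.10 when any 1 animal was left out. CP was present in 89.8% and 83.7% of AAV Müller nuclei and in 18.2% and 18.6% of vehicle nuclei. The AAV nuclei were deeper, and after thinning to 1000 UMIs the shares were 52.1% and 43.5% against 8.97% and 9.74%. Müller nuclei made up 3.70% and 1.52% of kept nuclei in the AAV retinas at week 4 and 11.3% to 13.5% in the others, yet they held 55.8% and 52.4% of all CP UMIs there, close to the 56.6% to 61.4% of the other retinas. Whether fewer Müller nuclei were present or fewer passed the marker gate was not tested.

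Astrocytes, the glia around ganglion cell axons, held CP at 532.7 and 461.1 CPM in AAV and 25.46 and 35.33 CPM in vehicle retinas at week 4. The ratio of the means was 16.3 and the log2 fold change 4.09 (SE 0.204). These AAV nuclei were deeper, with medians of 9993 and 10252.5 against 4634 and 4667 UMIs, and CP was found in 35.6% and 26.4% against 2.07% and 4.08% after thinning. The gate's own 3 markers summed to 1627 to 1727 CPM in AAV and 2217 to 2625 CPM in vehicle astrocytes, with GFAP at 821.5 to 903.4 against 1351 to 1393 CPM. At week 2 the direction was the opposite, with 10.27 and 20.17 CPM in the AAV animal and 24.66 and 26.07 CPM in the vehicle animal, from 21 and 16 and from 61 and 53 UMIs. Astrocytes held 9.58% and 13.3% of all CP UMIs in the AAV retinas at week 4 and 0.81% to 2.39% elsewhere. CP in astrocytes was 59.7% and 63.5% of its Müller level beside 87.7% and 75.6% for the Müller markers there. How much Müller RNA the astrocyte values hold was not tested. In rods CP was 1.35% and 0.909% of its Müller level beside 1.42% and 1.15% for Müller markers. CP was higher in AAV without overlap in 4 of 9 classes at week 4 and overlapped in 5.

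TF was a Müller gene in all 8 retinas, where Müller nuclei held 71.0% to 80.5% of its UMIs, and it was the only member that was lower in the AAV retinas at week 4 in its main class. Müller nuclei held 505 and 274.7 CPM in AAV and 1302 and 1217 CPM in vehicle retinas at week 4. At week 2 they held 912.2 and 801.6 CPM in the AAV animal and 1154 and 1243 CPM in the vehicle animal. At both times every AAV retina was below every vehicle retina, and the gap was larger at week 4.

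The vehicle mean was 3.23 times the AAV mean at week 4 (1260 ± 60.1 and 389.9 ± 163 CPM, SD, n = 2), and the log2 fold change was -1.67 (SE 0.245). It was -2.17 without AAV animal 7248 and -1.31 without AAV animal 7249. At week 2 the AAV level was 0.708 of the vehicle level. TF was present in 55.1% and 49.1% of AAV and in 73.5% and 64.3% of vehicle Müller nuclei at week 4, although the AAV nuclei were deeper. After thinning the shares were 28.2% and 19.7% against 56% and 50%.

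TF was lower in AAV without overlap in all 9 classes at week 4. Rods held 5.417 and 2.154 CPM in AAV and 42.77 and 41.24 CPM in vehicle retinas. Those levels were 1.07% and 0.784% of the Müller level in AAV, where Müller markers stood at 1.42% and 1.15%, and 3.28% and 3.39% in vehicle, where the markers stood at 2.64% and 2.92%. In rods both percentages were thus lower in AAV. In amacrine nuclei TF was at 0.489% and 0.206% of its Müller level in AAV and 1.35% and 1.02% in vehicle retinas, while the markers stood at 5.70% and 6.90% against 4.69% and 5.15%. On this scale the amacrine nuclei had less TF but not less of the markers. The part of Müller RNA in these values was not tested. Over all kept nuclei, TF was at 42.42 and 9.667 CPM in AAV and 184.2 and 181.8 CPM in vehicle retinas. The Müller share of kept nuclei differed between these retinas as well, and its part in that gap was not tested.

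**Figure D5:**
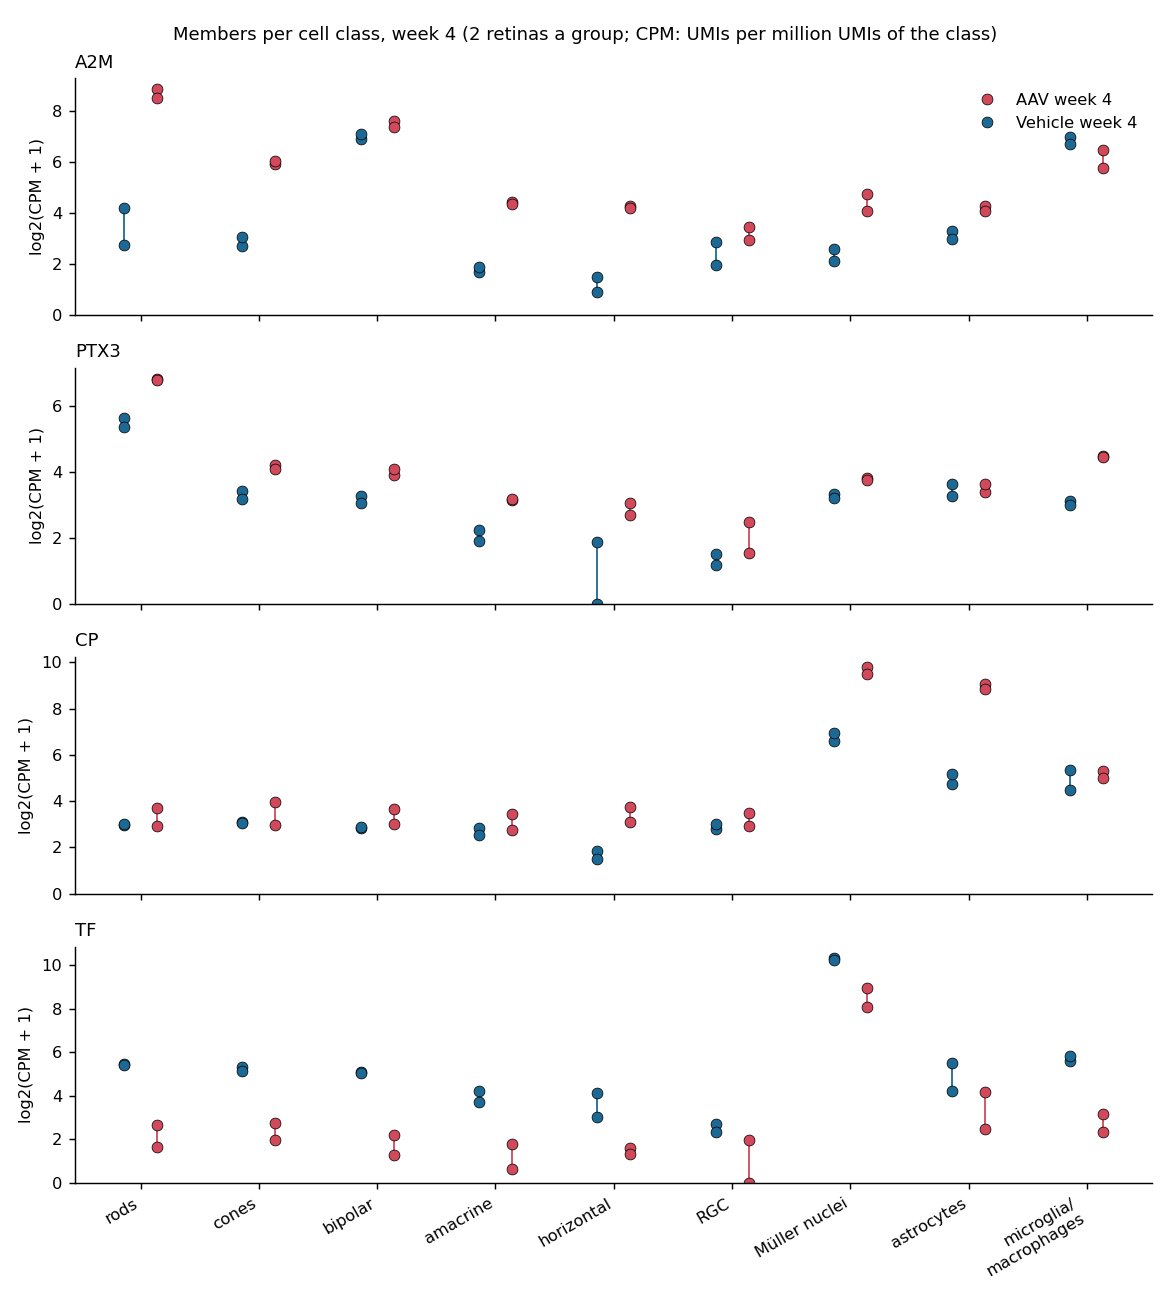
Level of each member as log2(CPM + 1) in 9 cell classes at week 4, with 2 retinas per group joined by a line, AAV in red and vehicle in blue. A2M is highest in AAV rods, CP in AAV Müller nuclei and astrocytes, and TF is lower in AAV in all 9 classes.

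CP was higher and TF lower in AAV Müller nuclei as a class, and TF was also compared between nuclei with and without CP. In the AAV retinas at week 4, TF was found in 30.5% of CP-positive and 25.7% of CP-negative thinned Müller nuclei of animal 7248, and in 21.0% and 18.7% in animal 7249. In the vehicle retinas the pairs were 58.6% and 55.7%, and 52.2% and 49.8%. In these 4 retinas the share with TF was higher among nuclei with CP, and the exact intervals of each pair overlapped. At week 2 the shares were ordered likewise in all 4 retinas, and in the left AAV retina the intervals did not overlap, with 54.2% (49.4 to 59.0) of CP-positive and 44.2% (42.7 to 45.7) of CP-negative nuclei.

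At week 2, before the larger differences, each of the 4 members overlapped between the AAV and the vehicle animal in most of 10 classes. A2M was higher without overlap in 3 classes and lower in 1, PTX3 was higher in 1, CP was higher in 1 and lower in 2, and TF was lower in 3. With 1 animal per arm these are differences between 2 pigs, and the share of all genes that separated in this way was not computed.

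Whether the members varied with RNA of the vector's transgene was asked within the AAV retinas. Nuclei with at least 1 UMI of EGFP (the transgene) were compared with nuclei without one. The members were thinned to 1000 UMIs per nucleus, but EGFP was counted before thinning, so the split can still follow depth. The authors reported vector genomes in every retinal layer they examined, so nuclei without EGFP RNA may hold vector. In rods, A2M was found in 32.9% of EGFP-positive and 25.9% of EGFP-negative nuclei of animal 7248 and in 24.3% and 21.2% of animal 7249. Over the 3 AAV animals the difference was 3.57 ± 3.24 percentage points (SD, n = 3), higher in 3 of 3, with an exact two-sided sign-flip permutation p of 0.25 and an adjusted p of 0.333 over 4 members. It was 1.84 points without animal 7248, 7.25 without thinning and 7.74 with at least 2 EGFP UMIs. For PTX3 it was 0.595 ± 0.93 points, higher in 2 of 3 (exact p = 0.50, adjusted p = 0.50), and 0.0755 points without animal 7248, 2.94 without thinning and 1.64 with at least 2 EGFP UMIs.

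In Müller nuclei the difference was -6.49 ± 6.11 points for CP and -7.07 ± 3.18 points for TF, each lower in EGFP-positive nuclei in 3 of 3 animals once the eyes of animal 7221 were averaged (exact permutation p = 0.25, adjusted p = 0.333 for both). CP was in 47.6% of EGFP-positive and 52.4% of EGFP-negative nuclei of animal 7248, in 31.1% and 44.4% of 7249, in 6.67% and 9.92% of the left eye of 7221 and in 5.51% and 5.00% of its right eye, where it was higher. TF was lower in EGFP-positive nuclei of all 4 AAV retinas, at 20.2% and 28.8% in animal 7248, 40.7% and 45.5% in the left eye of 7221 and 42.8% and 44.8% in its right eye, and with 20.3% in the EGFP-negative nuclei of 7249. Without thinning, CP differed by -1.15 points and TF by -7.03 points, each lower in 2 of 3 animals. With at least 2 EGFP UMIs TF differed by -11.4 points, also lower in 2 of 3, and without animal 7249 CP differed by -3.11 points. The smallest p that 3 animals allow is 0.25, so no difference could pass. In both AAV animals at week 4, EGFP-negative rods carried A2M at far above the vehicle level of 0.478% and 1.19%. Whether these rods held vector was not measured here.

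The genes whose pattern was most like each member's were found by Pearson's r of log2(CPM + 1) over 80 retina-by-class sums, among 12958 genes. These points share libraries and cell classes, so r is only a description. DUOX2 (r = 0.777), which makes hydrogen peroxide, BANK1 (0.739) and UVRAG (0.731) were most like A2M. DUOX2 in rods stood at 64.42 and 57.46 CPM in AAV and 6.201 and 9.101 CPM in vehicle retinas at week 4, whereas UVRAG was at 748.8 and 650.4 against 595.5 and 654.5 CPM. The rod transcription factor NRL (0.865), itself a marker of the gate, SPAG7 (0.859) and the glycine decarboxylase gene GLDC (0.852) were most like PTX3.

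For CP they were the unnamed gene ENSSSCG00000061721 (0.80), COL9A1 (0.791), which encodes a collagen IX chain, and SBSPON (0.788). COL9A1 in Müller nuclei stood at 2926 and 2394 CPM in AAV and 1285 and 1090 CPM in vehicle retinas at week 4, and SBSPON at 174.5 and 223.6 against 56.03 and 78.23 CPM. For TF they were SLCO1C1 (0.877), a thyroid hormone transporter, RGR (0.869), a retinal opsin of Müller glia and pigment epithelium, and CLRN1 (0.861). SLCO1C1 stood at 43.12 and 28.91 CPM in AAV and 375.7 and 282.8 CPM in vehicle Müller nuclei, and RGR at 53.32 and 60.41 against 462.3 and 494.7 CPM. RGR, SLCO1C1 and TF were thus all lower in the AAV Müller class.

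Other genes of the acute-phase response and of linked functions were taken from 6 lists of 138 genes, of which 116 were found among the counted genes. Beside acute-phase genes, the lists cover upstream signalling, protease inhibitors, soluble recognition molecules, and iron and copper handling. Shares pooled over the 6 lists are therefore not shares of acute-phase genes alone. None of the 4 members is on the lists. Tests compared the 2 AAV with the 2 vehicle animals at week 4 with edgeR's quasi-likelihood test, and adjusted p-values (Benjamini-Hochberg) ran over all genes of a class, with 0.05 as the threshold. In Müller nuclei 21 of 80 tested list genes rose, 26.2% beside 11.9% of all 18080 genes, and 4 fell, 5.00% beside 11.4%. In rods 10 of 83 rose, 12% beside 6.56% of all 21150 genes, and 4 fell, 4.82% beside 6.98%. In astrocytes 20 of 62 rose, 32.3% beside 7.96% of all 11978 genes, and 2 fell, 3.23% beside 6.90%. The counts called in rods and astrocytes moved when 1 animal was left out, and so did the share of all genes called. Such fits leave 1 animal in an arm, so no conclusion is drawn from their counts. With DESeq2, 11 list genes rose in astrocytes, beside 4.82% of all genes, and 0 fell, beside 3.69%.

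Marker lists named for other cell types moved in the same classes at week 4. In rods, 13 lymphocyte markers summed to 46.6 to 47.6 CPM in AAV and 22.5 to 23.4 CPM in vehicle, and 7 Müller markers to 26.0 to 31.7 against 88.5 to 97.2 CPM. In Müller nuclei, lymphocyte markers summed to 87.3 to 94.7 against 50.5 to 63.8 CPM, and 3 astrocyte markers to 189 to 248 against 47.4 to 107 CPM. In astrocytes, 7 ganglion cell markers summed to 288 to 291 against 147 to 155 CPM, and 8 endothelial markers to 243 to 248 against 666 to 854 CPM. The 8 endothelial markers are not specific to endothelial nuclei. Over all retinas they summed to 1761.58 CPM in Müller nuclei and 1933.49 CPM in endothelial nuclei. The paper describes GFAP, whose gene is on the astrocyte list, as present in Müller glia as well as astrocytes. A move of either list therefore does not by itself show RNA of another cell type. The part of other cell types in the counts of list genes was not tested.

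Among 14 tested positive acute-phase genes, 5 rose in Müller nuclei (35.7%, beside 11.9% of all genes) and none fell (median log2 fold change 0.90, and 0.00 over all genes). C4A, a complement component, was at 53.0 and 48.5 CPM in AAV and 2.19 and 1.89 CPM in vehicle nuclei (log2 fold change 4.65, SE 0.185, edgeR adjusted p = 1.16e-05). SERPING1, the inhibitor of complement C1, was at 64.9 and 66.3 CPM in AAV nuclei, a fitted 5.76 times its vehicle level (2.53, SE 0.139, edgeR adjusted p = 4.42e-05). Both differed already at week 2, with log2 ratios of 3.80 and 1.95 (1 CPM added) between the 2 animals, where CP overlapped. PLAT, another of the 5, did not pass the threshold with DESeq2 (adjusted p = 0.11). Astrocytes gave 5 of 9 rising (55.6%, beside 7.96% of all genes), among them C4A (3.9, SE 0.315) and C3, the central complement protein (3.78, SE 0.545), whose log2 ratio at week 2 was -1.27. Rods gave 1 of 15 (6.67%, beside 6.56% of all genes), the metallothionein MT1A, whose call was lost when any 1 animal was left out.

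Of the genes that signal upstream of the acute-phase response, 12 of 22 rose in Müller nuclei (54.5%, beside 11.9% of all genes), 7 of 21 in rods (33.3%, beside 6.56%) and 9 of 19 in astrocytes (47.4%, beside 7.96%), with 1, none and 1 falling. CEBPD, which encodes a C/EBP factor, was at 27.4 and 16.8 CPM in AAV and 0.782 and 1.18 CPM in vehicle Müller nuclei (log2 fold change 4.53, SE 0.338, edgeR adjusted p = 0.000175). In rods it was at 13.3 and 13.3 against 1.02 and 0.764 CPM (3.95, SE 0.227, edgeR adjusted p = 0.000583). BCL3, a partner of NF-kappaB, rose in Müller nuclei (3.62, SE 0.39) and in rods (4.10, SE 0.581), from 0.113 and 0.573 CPM in vehicle to 3.92 and 5.70 CPM in AAV rods. SOCS3, a feedback inhibitor of STAT3 signalling, was at 3.37 and 2.84 CPM in AAV and 0.0782 and 0 CPM in vehicle Müller nuclei and passed the test there. EPAS1, a hypoxia-inducible factor, fell in Müller nuclei (-1.09, SE 0.121). Among the rising rod genes, CEBPB and TNFRSF1A did not pass the threshold with DESeq2 (adjusted p = 0.0799 and 0.119). The calls on CEBPD and BCL3 in both classes and on EPAS1 held when each animal was left out in turn.

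Of 15 tested macroglobulin and protease inhibitor genes in rods none rose and 2 fell (0% and 13.3%, beside 6.56% and 6.98% of all genes), TIMP3 (-1.87, SE 0.349) and SERPINI1 (-0.73, SE 0.153), and both calls were lost without either vehicle animal, that on SERPINI1 also without AAV animal 7248. In Müller nuclei 2 of 13 rose, SERPING1 and CD109 (1.39, SE 0.159), a member of the A2M family that stays on the cell surface, and 1 fell, the cysteine protease inhibitor CST3 (-0.79, SE 0.212), whose call was lost without 3 of the 4 animals in turn. These are 15.4% and 7.69%, near the 11.9% and 11.4% of all genes. In astrocytes 6 of 12 rose and 1 fell (50% and 8.33%, beside 7.96% and 6.90% of all genes). Among the pentraxins and other soluble recognition molecules, none of 9 rose in rods and 2 fell (0% and 22.2%, beside 6.56% and 6.98% of all genes). The 2 were the collectin COLEC12 (-1.74, SE 0.214) and the neuronal pentraxin NPTX2 (-1.67, SE 0.281). NPTX2 also fell in Müller nuclei (-3.25, SE 0.482), from 3.67 and 5.03 CPM in vehicle to 0.526 and 0.258 CPM in AAV. The value of animal 7249, 0.258 CPM, is under the level of 3 UMIs there, so the size of that fall is not resolved. The NPTX2 call in rods was lost without vehicle animal 7251.

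Among 25 genes of iron and copper handling in Müller nuclei, 3 rose and 1 fell (12% and 4.00%), close to or under the share of all genes. STEAP3, a ferrireductase, was at 22.6 and 11.9 CPM in AAV and 4.14 and 2.59 CPM in vehicle nuclei (2.42, SE 0.347, edgeR adjusted p = 0.00318). SLC40A1, which encodes the iron exporter ferroportin, was at 61.8 and 76.4 against 24.9 and 32.4 CPM (1.28, SE 0.18, edgeR adjusted p = 0.00295). At week 2 both were lower in the AAV than in the vehicle animal, with log2 ratios of -0.91 and -1.27 (1 CPM added). Both week 4 calls held when each animal was left out in turn, while those on ACO1 (0.62) and HMOX2 (-0.69) did not. In astrocytes HEPH, a ferroxidase related to CP, rose (1.71, SE 0.223), as did the metal transporter SLC39A14 (1.07, SE 0.28), whose call was lost without AAV animal 7248 or vehicle animal 7250. In rods 2 of 27 rose (7.41%, near the 6.56% of all genes), TFR2 (1.01) and ACO1 (0.52), each lost without 3 of the 4 animals in turn. None of the 2 or 3 tested negative acute-phase genes was called in Müller nuclei, rods or astrocytes.

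In cones 2 of 70 tested list genes rose and 1 fell (2.86% and 1.43%, beside 1.42% and 0.835% of all genes), and in bipolar nuclei 4 of 78 rose and 2 fell (5.13% and 2.56%, beside 2.43% and 1.40%).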

How the data were processed

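Single-nucleus RNA was counted by the authors with Cell Ranger 8.0.0 against Sscrofa11.1 (release 113) plus EGFP, and the deposited values are raw UMI counts per gene and barcode, from 4 lanes per retina. Barcodes held at least 500 UMIs. Nuclei with high mitochondrial shares were removed by a 2-component mixture (posterior 0.75). A Poisson model of 90 marker genes placed nuclei in classes (posterior of at least 0.95 and 2 markers), and 18.2% stayed in none. No doublet caller was run, so doublets were not removed here. Counts were summed per retina and class and tested in classes of at least 50 nuclei in each week 4 retina with edgeR 4.0.16 (quasi-likelihood, TMM, filterByExpr) in R 4.3.3. DESeq2 1.42.0 was an alternative. Scripts were checked on simulated data.

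The members and lists were chosen with earlier results of these data known. Named list genes were up to 5 per list, class and direction with the largest change among those called without overlap of the groups, and this was extended to astrocytes after the data were seen. Replicates are separate animals at week 4. At week 2 they are eyes of 1 animal. Intervals are 95% exact intervals and cover counting error only. Marker and RNA shares are described in place of ambient correction, which was not run.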

Additional observations from a re-analysis of the deposited data

Results flagged for a closer look

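CP in astrocytes stood out because its difference went opposite ways at the 2 times. The log2 ratio of AAV to vehicle was -0.96 at week 2, with both AAV retinas under both vehicle retinas, and 4.03 at week 4, with both AAV retinas above both vehicle retinas. The difference between the weeks was not tested, since week 2 holds 1 animal per arm, and the week 2 values rest on 37 AAV and 114 vehicle UMIs.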

How the results depend on the processing

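Of 130 alternative values, 22 moved past the spread between replicates or, for counts, by more than 1.5 times, and 2 changed sign, both at week 2. The EGFP differences among the 130 were judged by sign alone, which they kept. A change in their size, given below, did not count as a move. Their test could not pass at any setting, so it was no guide. The cause of the moves was not tested. Leaving out 1 animal at a time gave log2 fold changes of 4.70 to 6.28 for A2M and 1.27 to 1.56 for PTX3 in rods, 2.70 to 3.10 for CP and -2.17 to -1.31 for TF in Müller nuclei, and 3.88 to 4.36 for CP in astrocytes. It gave 3 to 10 rising and 1 to 7 falling list genes in rods, 14 to 20 and 3 to 5 in Müller nuclei, and 13 to 21 and 0 to 2 in astrocytes. The share of all genes called changed in these fits as well. In Müller nuclei and astrocytes it was lower than in the main fit each time, and in rods it went either way. The counts alone therefore do not separate the lists from all genes, and no conclusion is drawn from them. Without the filter on low counts 8 list genes fell in rods, beside 7.6% of all genes. With DESeq2, 11 list genes rose and 0 fell in astrocytes, beside 4.82% and 3.69% of all genes. Week 2 log2 ratios in left and right eyes were 0.81 and -0.07 for A2M in rods, 0.49 and -0.78 for CP in Müller nuclei, and -0.34 and -0.63 for TF in Müller nuclei, against 0.38, -0.15 and -0.50 with both eyes. Without thinning, the EGFP difference was 7.25 points for A2M, 2.94 for PTX3, -1.15 for CP (lower in 2 of 3 animals) and -7.03 for TF (lower in 2 of 3). With at least 2 EGFP UMIs it was 7.74, 1.64, -6.43 and -11.4, the last lower in 2 of 3. Without 1 week 4 animal it was 1.84 to 3.82, 0.0755 to 0.738, -7.31 to -3.11 and -6.30 to -6.01. Exact permutation p cannot fall under 0.25 with 3 animals, so it does not show whether these differences depend on the processing. Scaling by library size or RLE, the stricter gate, no mitochondrial filter and a minimum of 1000 UMIs kept the sign of the 4 members at week 4. Fits for astrocytes were added after the data were seen, without the stricter gate, which left too few nuclei. A lone animal in an arm was assumed to vary like the other group. No paired analysis was possible because replicate numbers follow accession order and the groups hold different animals. At this depth 3 UMIs in AAV Müller nuclei of animal 7249 equal 0.774 CPM, so list genes near that level are not resolved there.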

Other observations

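Within the AAV retinas at week 4, rods with 2 or more A2M UMIs differed from rods with none in genes outside the acute-phase lists. These genes were picked after their values were seen, among 6493 genes and rods of at least 1000 UMIs, and carry no test. A2M-positive rods numbered 5042 in animal 7248 and 5012 in animal 7249, with median depths of 2209 and 2677.5 UMIs against 1853 and 2074.5 UMIs in rods without A2M. TRAK1, an adaptor for mitochondrial transport, was at 232 and 598 CPM in A2M-positive and 49.5 and 107 CPM in A2M-negative rods. CDH10, a cadherin, was at 338 and 345 against 101 and 62.4 CPM, and BRINP1 at 51.5 and 57.6 against 14.8 and 8.05 CPM. VAX2, a transcription factor of ventral retina, was lower, at 21.2 and 14 against 54.0 and 31.1 CPM. Its neighbours in the list of lower genes were CD207, at 17.1 and 13.2 against 45.4 and 35.0 CPM, and CLEC4F, at 16.1 and 13.6 against 44.3 and 29.3 CPM.

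PTX3 was at 165 and 171 CPM in A2M-positive and 86.3 and 87.2 CPM in A2M-negative rods. The 9 bipolar markers summed to 934 and 920 against 786 and 781 CPM, 6 pigment epithelium markers to 318 and 276 against 240 and 201 CPM, and the 7 rod markers to 6330 and 5710 against 7530 and 7030 CPM. The part of bipolar and pigment epithelium RNA in these differences was not tested.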
